A study of Mus musculus with 6 samples.

Results

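Immediate early genes are transcribed within minutes of a stress, growth factor or cytokine signal, without new protein being made, and most of them encode transcription factors or proteins that end the signal. In the liver they are known for their rise after partial hepatectomy, during the isolation of hepatocytes and under lipid or oxidative stress, when the MAP kinases ERK, JNK and p38 act on the factors already bound at their promoters. The 10 genes described here were chosen by name, with earlier results of these data known, out of 57180 in the table. They were the AP-1 subunits *Fos*, *Fosl1*, *Jun*, *Junb* and *Atf3*, the transcription factors *Egr1*, *Myc* and *Klf6*, the phosphatase *Dusp1* and the survival protein *Ier3*. AP-1 is a dimer of FOS, JUN and ATF proteins that binds DNA through a basic leucine zipper.

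RNA came from primary hepatocytes of male mice that were exposed to 0.1 mM palmitic acid, a saturated fatty acid, for 24 h in both groups. LOXP hepatocytes came from mice with a floxed STING gene, and KO hepatocytes from liver-specific STING knockouts. The knockouts were made with a Cre recombinase driven by the *Albumin* promoter, which is active in hepatocytes. Whether other liver cells were recombined was not tested. Each group had 3 libraries, named LOXP1 to LOXP3 and KO1 to KO3. The labels give no age, and do not say whether the libraries came from separate animals, so the p-values measure only the spread between these libraries, which may be technical. There was no group without palmitate and no time before 24 h, so the levels are those of a late time point and not of the first wave of induction. All cells had been isolated with collagenase and cultured with dexamethasone, a glucocorticoid. *Sting1* itself had 19, 16 and 23 counts in LOXP1, LOXP2 and LOXP3 and 24, 23 and 15 in KO1, KO2 and KO3, so the counts do not separate the genotypes, and directions below refer to the libraries labelled KO. The study also measured this mRNA by RT-PCR, which is not analysed here.

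Counted reads ran from 14726983 to 18536985 per library, and mitochondrial genes took between 3.86% and 4.65% of them. LOXP2 stood farthest from its group. Each library was compared, on the log2 scale, with the mean of the other libraries of its group over 11102 genes. These genes averaged over 1 FPKM (counts scaled to gene length and to library size) in either group. In LOXP2, 127 lay more than 2-fold from that mean, against 95 in LOXP1, 88 in LOXP3 and 60 to 62 in each KO library. Early genes whose values rest on LOXP2 are therefore given with and without it.

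The promoters of 7 members (*Atf3*, *Jun*, *Junb*, *Fos*, *Klf6*, *Dusp1* and *Ier3*) were found in RefSeq's promoter table, and *Fosl1*, *Egr1* and *Myc* did not match. The 250 bases before the start are shown for *Jun* and *Ier3*, the members whose levels swung most between libraries of one group, and for *Dusp1*, which was higher in KO. They are RefSeq sequences of the GRCm38.p6 build, read 5′ to 3′ on the gene's own strand, with motif matches in capitals. In *Jun* the capitals mark a cAMP response element type match, TGACNTCA, from -45 to -38. In *Dusp1* they mark a match to the same motif from -143 to -136 and an E-box, CACGTG, from -126 to -121. In *Ier3* they mark an NF-kB motif from -92 to -83.
Jun, chr4:95052223-95052472, minus strand: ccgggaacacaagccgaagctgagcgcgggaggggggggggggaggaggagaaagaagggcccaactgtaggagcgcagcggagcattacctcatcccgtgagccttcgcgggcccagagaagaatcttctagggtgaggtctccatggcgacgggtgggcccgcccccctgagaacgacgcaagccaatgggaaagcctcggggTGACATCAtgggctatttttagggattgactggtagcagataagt
Dusp1, chr17:26508473-26508722, minus strand: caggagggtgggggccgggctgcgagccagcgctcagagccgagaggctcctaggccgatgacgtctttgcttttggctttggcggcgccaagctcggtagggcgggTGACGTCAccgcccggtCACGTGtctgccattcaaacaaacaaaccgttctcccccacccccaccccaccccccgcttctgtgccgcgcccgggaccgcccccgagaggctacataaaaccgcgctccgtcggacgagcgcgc
Ier3, chr17:35821463-35821712, plus strand: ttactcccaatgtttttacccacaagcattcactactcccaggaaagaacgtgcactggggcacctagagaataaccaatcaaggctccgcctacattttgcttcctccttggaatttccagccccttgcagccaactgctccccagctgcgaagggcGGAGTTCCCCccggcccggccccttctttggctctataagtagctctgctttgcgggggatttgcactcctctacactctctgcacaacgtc
The motifs were searched on both strands of the 300 bases from 250 before to 50 after the start of 32851 promoters. The motif TGACNTCA was in 3 of the 7 member promoters (*Jun*, *Klf6* and *Dusp1*) and in 8.83% of all promoters. The NF-kB motif was in *Fos* and *Ier3* and in 4.51% of all promoters, CACGTG was in *Klf6* and *Dusp1* and in 7.15%, and TATAAA was in *Fos* and *Junb* and in 13.6%. The AP-1 motif TGANTCA (7.81% of all promoters), the CArG box of serum response factor (1.63%) and the EGR motif GCGNGGGCG (5.55%) were in none of the 7. A match is a description of the letters only.

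In the libraries labelled KO, *Fosl1*, *Egr1* and *Dusp1* were higher and *Atf3* was lower than in LOXP, while the other 6 genes had an adjusted p above 0.05. *Fosl1* was 1.95-fold higher, *Egr1* was 1.42-fold and *Dusp1* 1.29-fold higher, and *Atf3* stood at 0.825 of its LOXP level. All 10 genes had enough counts to be tested. At an adjusted p under 0.05 from edgeR's quasi-likelihood test, 3 of 10 were higher, where 11.5% of the 14151 genes tested were, and 1 of 10 was lower, where 11.6% were. Values of the 2 groups did not overlap for 5 genes that were higher in KO (*Fos*, *Fosl1*, *Egr1*, *Myc* and *Dusp1*), against 20.4% of all genes tested. They did not overlap for 1 gene that was lower (*Atf3*), against 20.3%. None of the 10 met all 3 of the study's criteria (more than 1 on the log2 scale in either direction, q below 0.05, and either group averaging over 1 FPKM), which 2.05% of the genes tested met, and DESeq2 also placed 0 there. *Junb* and *Myc* had an unadjusted p under 0.05 in the same test (0.0438 and 0.0480) and did not pass after adjustment. The median log2 fold change of the 10 genes was 0.05, beside -0.002 over all genes tested, with 5 positive and 5 negative values. As RNA was taken from all cells of a culture, fewer cells that express a gene and less RNA per cell cannot be told apart.

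**Figure D1:**
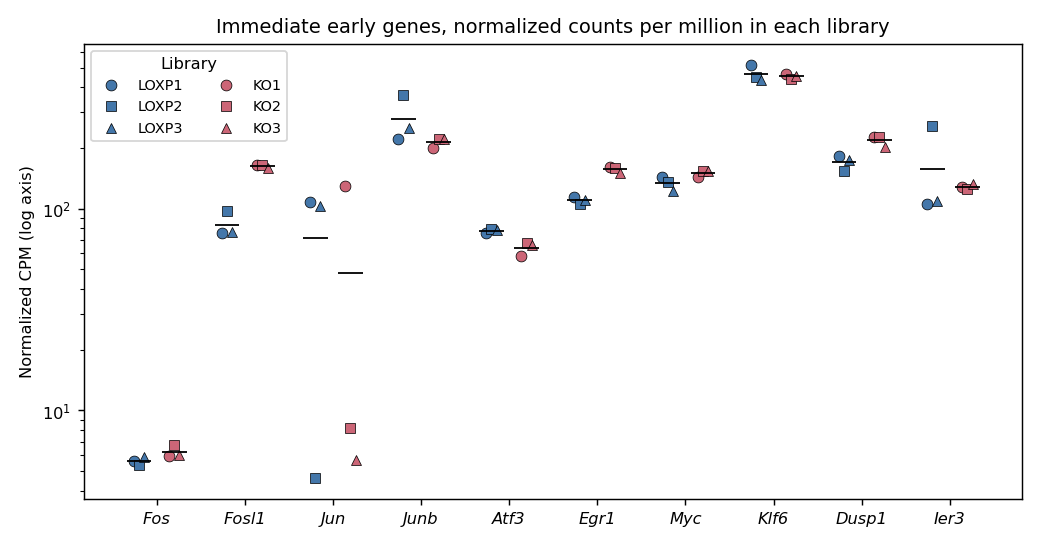
Normalized CPM (log axis) of the 10 immediate early genes in each library, with LOXP in blue, KO in red, the symbol giving the replicate number and a bar at each group mean of 3 libraries. Fosl1 and Egr1 are separated by group, while Jun lies between 103 and 129 in LOXP1, LOXP3 and KO1 and between 4.62 and 8.20 in LOXP2, KO2 and KO3.

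Per length of gene, the members spanned a wide range. The mean FPKM over the 6 libraries was highest for *Ier3* (125), followed by *Junb* (107) and *Klf6* (84.3). *Fosl1* had 45.3, *Dusp1* 31.7, *Egr1* 29.7, *Atf3* 27.5, *Jun* 18.8 and *Myc* 17.1, and *Fos* was lowest at 1.56. The mean of *Jun* was near the value of no library, so its place in this order is uncertain. *Jun* had 33.6, 1.41 and 32.1 FPKM in LOXP1, LOXP2 and LOXP3 and 41.0, 2.57 and 1.83 in KO1, KO2 and KO3. In LOXP the order of *Ier3* (136 ± 73.0 FPKM), *Junb* (119 ± 30.5) and *Klf6* (84.5 ± 8.91) lay within their spread (SD, n = 3). The levels of *Fosl1* (30.2 ± 4.08), *Atf3* (29.9 ± 0.531), *Dusp1* (27.4 ± 2.82) and *Egr1* (24.2 ± 1.24) also lay close together in LOXP. In KO, *Fosl1* at 60.5 ± 0.955 FPKM stood above *Dusp1* (36.1 ± 2.15), *Egr1* (35.2 ± 1.03) and *Atf3* (25.2 ± 1.93).

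*Fosl1* (chromosome 19, 5497575 to 5505974, GRCm39) encodes FRA-1, a FOS family subunit of AP-1 that lacks the strong activation domain of FOS and accumulates under sustained ERK signaling. Its normalized level, in counts per 1000000 counted reads (CPM), was 75.6, 97.7 and 76.7 in LOXP1, LOXP2 and LOXP3 and 165, 164 and 158 in KO1, KO2 and KO3. Every KO library lay above every LOXP library, and LOXP2 was the highest of its group. The log2 fold change was 0.96 (SE, the standard error, of 0.099, adjusted p = 4.16e-04), and without LOXP2 it was 1.09 (adjusted p = 7.68e-05), past the study's fold change criterion. The span of *Fosl1* overlaps that of *Ccdc85b*, which moved the other way, from 14.1 ± 0.517 to 5.18 ± 0.922 CPM (± gives the SD, n = 3; log2 fold change -1.44, adjusted p = 3.81e-04). *Ccdc85b* and the other overlapping genes were chosen after their values were seen. The strand setting of the counting is not given in the sources used here, so reads of overlapping genes cannot be told apart. With the counts of both genes summed, the log2 fold change was 0.78 (adjusted p = 7.36e-04).

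*Fos* (chromosome 12, 85520664 to 85524047) encodes the founding subunit of AP-1, whose mRNA is short-lived. By its mean level it was the scarcest of the 10, though *Jun* was below it in LOXP2 and KO3. It had 89, 77 and 89 counts in LOXP1, LOXP2 and LOXP3 and 93, 125 and 103 in KO1, KO2 and KO3. After normalization these were 5.62, 5.38 and 5.86 CPM in LOXP and 5.93, 6.75 and 6.01 in KO. The groups did not overlap, but the gap was smaller than the SD of either group (0.237 and 0.451 CPM), and the log2 fold change of 0.15 (95% confidence interval from -0.16 to 0.46, adjusted p = 0.485) did not pass the test.

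*Junb* (chromosome 8, 85701113 to 85705347) encodes a JUN family subunit that is induced by cytokines and by growth factors. It had 222, 364 and 251 CPM in LOXP1, LOXP2 and LOXP3 and 199, 221 and 222 in KO1, KO2 and KO3. The KO libraries overlapped with LOXP1, and LOXP2 stood above the other 5. The log2 fold change was -0.38 (SE 0.161, adjusted p = 0.128). It was -0.14 without LOXP2 (adjusted p = 0.260) and -0.53 without LOXP1 (adjusted p = 0.0406), so a single LOXP library decided the call. The span of *Junb* meets that of *Prdx2*, which had 156 ± 12.2 and 145 ± 3.20 CPM in LOXP and KO.

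*Atf3* (chromosome 1, 190902493 to 190950236) encodes a factor that is induced by the integrated stress response and by JNK, and that mostly represses as a homodimer. It had 75.3, 78.9 and 78.5 CPM in LOXP1, LOXP2 and LOXP3 and 58.3, 67.9 and 65.7 in KO1, KO2 and KO3. Each KO library was below each LOXP library, KO1 farthest. *Atf3* fell by 0.28 on the log2 scale (SE 0.075, adjusted p = 0.0300). The call was lost without KO1 (adjusted p = 0.0883), KO3 (0.0634), LOXP2 (0.0785) or LOXP3 (0.0822), with the log2 fold change between -0.21 and -0.32 over all alternatives. The span of *Atf3* also overlaps that of another gene, and no fit with summed counts was run for it.

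*Jun* (chromosome 4, 94937271 to 94940459) encodes c-JUN, the main target of JNK and the partner of FOS in AP-1. Its counts fell into 2 ranges that crossed both groups. LOXP1, LOXP2 and LOXP3 had 1702, 66 and 1571 counts, and KO1, KO2 and KO3 had 2029, 152 and 98. In CPM these were 107, 4.62 and 103 in LOXP and 129, 8.20 and 5.71 in KO. The highest library exceeded the lowest 23.3-fold within LOXP and 22.6-fold within KO, and the groups overlapped fully. The log2 fold change of -0.60 had a 95% confidence interval from -3.35 to 2.14 (adjusted p = 0.765), so a difference between the groups was not detectable against this spread. Leaving out KO1 moved it to -3.36 (adjusted p = 0.0818) and leaving out KO3 to -0.07 (adjusted p = 0.978). Leaving out KO2 (-0.09), LOXP1 (-0.19), LOXP3 (-0.25) or LOXP2 (-1.15) also moved it by over 1.5 times.

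The spread of *Jun* was set beside that of the same 11102 genes, as the range among the 3 libraries of a group on log2(CPM + 0.5). *Jun* had a range of 4.40 in LOXP and 4.38 in KO, while the median gene had 0.22 and 0.17. Only 0.0721% of these genes had a range at least as large in LOXP, and 0.0540% in KO. By the smaller of the 2 ranges it was in place 2 among all of them. *Ier3* had a range of 1.29 in LOXP, which 1.28% of genes reached, and 0.09 in KO. *Junb* had 0.72 and 0.15, and the other 7 members had at most 0.37 in LOXP and 0.22 in KO. *Jun* has a single exon in GENCODE M21 and its span overlaps that of the antisense transcript *Junos*. *Junos* had 26, 16 and 31 counts in LOXP1, LOXP2 and LOXP3 and 34, 39 and 42 in KO1, KO2 and KO3, with no swing of the size of that of *Jun*. The part of the overlap or of the exon structure in the swing was not tested.

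**Figure D2:**
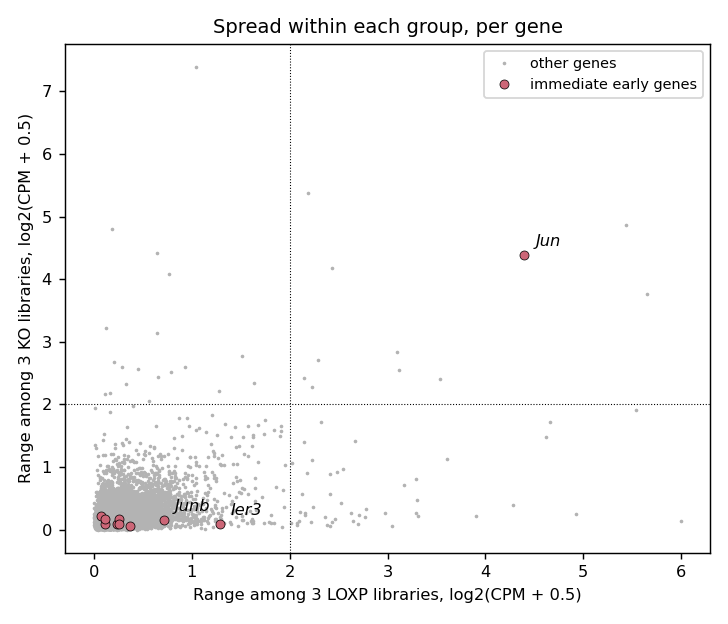
Range among the 3 LOXP libraries (horizontal) against the range among the 3 KO libraries (vertical), on log2(CPM + 0.5), for 11102 genes in grey and the 10 immediate early genes in red, with dotted lines at a range of 2. Jun, at 4.40 and 4.38, is far from the other members, Ier3 and Junb are spread in LOXP alone, and the other 7 lie in the dense corner.

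The zinc finger and helix-loop-helix factors among the members moved less than *Fosl1*. *Egr1* (chromosome 18, 34992876 to 34998037), a zinc finger factor downstream of ERK and serum response factor, had 114, 106 and 111 CPM in LOXP1, LOXP2 and LOXP3 and 160.2, 159 and 149.7 in KO1, KO2 and KO3. The groups were well apart and neither held a library that stood out. *Egr1* rose by 0.51 on the log2 scale (SE 0.059, adjusted p = 7.61e-04), and it passed the threshold under all 12 alternatives, with values from 0.48 to 0.54. *Fosl1* was the other member to do so.

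*Myc* (chromosome 15, 61857240 to 61862223) encodes a helix-loop-helix factor that drives ribosome production and growth. It had 144, 136 and 122 CPM in LOXP1, LOXP2 and LOXP3 and 144, 153 and 154 in KO1, KO2 and KO3. KO1 lay just above LOXP1, so the groups did not overlap by a narrow gap. The log2 fold change was 0.17 (95% confidence interval from 0.002 to 0.33), and with an adjusted p of 0.136 it did not pass the test. *Klf6* (chromosome 13, 5911481 to 5920393), a zinc finger factor of the KLF family that is abundant in injured liver, had 516, 449 and 431 CPM in LOXP1, LOXP2 and LOXP3 and 466, 439 and 453 in KO1, KO2 and KO3. The groups overlapped, with a log2 fold change of -0.04 (95% confidence interval from -0.20 to 0.12, adjusted p = 0.735), and the interval leaves room for no more than a 1.09-fold rise or a fall to 0.869.

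*Dusp1* (chromosome 17, 26724564 to 26781102), whose promoter holds the TGACNTCA match shown above, encodes a phosphatase that inactivates JNK, p38 and ERK and is also induced by glucocorticoids. It had 182, 153 and 173 CPM in LOXP1, LOXP2 and LOXP3 and 227, 226 and 201 in KO1, KO2 and KO3. All KO libraries were above all LOXP libraries, and LOXP2 was lowest. *Dusp1* rose by 0.37 on the log2 scale (SE 0.081, adjusted p = 0.0137). The adjusted p was 0.0527 without KO1 and 0.0573 without KO2, with a log2 fold change of 0.34 in both. As listed, its span also meets that of *Ergic1* (188 ± 13.9 CPM in LOXP and 207 ± 9.96 in KO), and with both summed the log2 fold change was 0.25 (adjusted p = 0.0180).

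*Ier3* (chromosome 17, 36132576 to 36133815), whose promoter holds the NF-kB motif shown above, encodes a protein that NF-kB induces and that protects cells from death signals. It had 105, 257 and 109 CPM in LOXP1, LOXP2 and LOXP3 and 127, 125 and 133 in KO1, KO2 and KO3. LOXP2 was the highest of the 6 libraries and LOXP1 and LOXP3 were the lowest, with all KO libraries between them. With all libraries the log2 fold change was -0.29 (SE 0.305, adjusted p = 0.547). Without LOXP2 it turned to 0.26 (adjusted p = 0.0331), so the direction of *Ier3* rested on that library. LOXP2 was also the highest of the 6 libraries for *Junb* and *Atf3* and the lowest for *Fos*, *Jun*, *Egr1* and *Dusp1*.

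**Figure D3:**
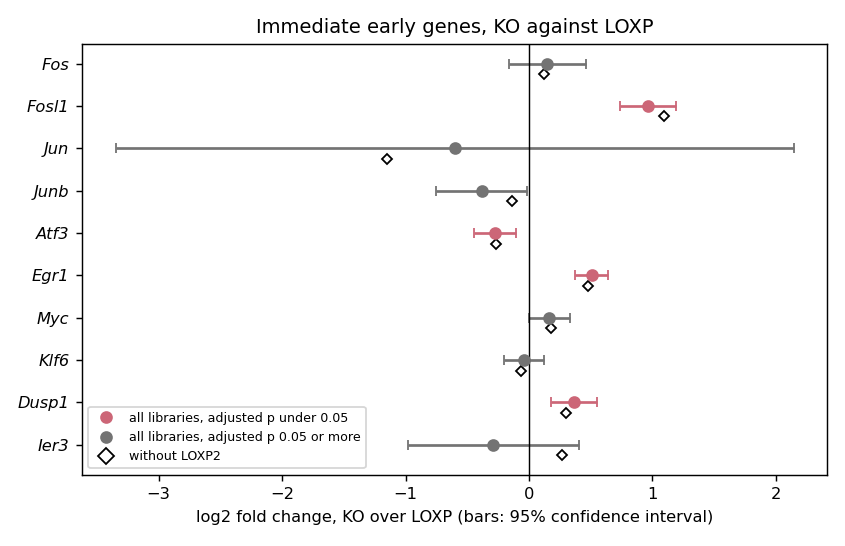
Log2 fold change of KO over LOXP for each immediate early gene with its 95% confidence interval from edgeR (n = 3 libraries per group), in red where the adjusted p was under 0.05, and the value without LOXP2 as an open diamond. Fosl1, Egr1 and Dusp1 lie above 0 and Atf3 below it in both, Ier3 changes from -0.29 to 0.26, and the interval of Jun runs from -3.35 to 2.14.

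The genes around these members were counted in lists written by hand, and each count is set beside the 11.5% of all 14151 genes tested that were higher and the 11.6% that were lower. The lists were chosen with earlier results of these data known, and the share over all genes includes scarce ones. A list share above it is therefore a description and not a test. Among 14 tested AP-1, small MAF and ATF factors outside the 10, 2 were higher (14.3%, near the 11.5% of all genes) and 0 lower, and the median difference on the log2 scale was 0.05. *Mafk*, a small MAF protein that pairs with NRF2, had 87.2, 67.0 and 80.5 CPM in LOXP and 119, 131 and 131 in KO (log2 fold change 0.70, adjusted p = 0.00183). *Atf1*, a partner of CREB, went from 43.6 ± 5.64 to 59.0 ± 7.85 CPM (± is the SD over 3 libraries; log2 fold change 0.44, adjusted p = 0.0338), and its call was lost without KO1, KO2, LOXP2 or LOXP3 (adjusted p up to 0.110).

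Of 11 tested EGR, NR4A and serum response factors, 3 were higher (27.3%, against 11.5% of all genes) and 0 lower, with a median of 0.06. *Nr4a2*, an orphan nuclear receptor of the early response, had 3.09, 2.52 and 2.57 CPM in LOXP and 4.78, 5.23 and 5.95 in KO (log2 fold change 0.96, adjusted p = 0.00632). *Srf*, the serum response factor itself, went from 85.2 ± 5.31 to 107 ± 7.99 CPM (0.33, adjusted p = 0.0179). *Nr4a1* went from 9.15 ± 1.33 to 12.3 ± 0.392 CPM (0.43, adjusted p = 0.0454). Its call was kept under only 3 of 12 alternatives, with an adjusted p from 0.0308 to 0.131 over them. Without KO2 or LOXP2 only *Nr4a2* of these 3 stayed under the threshold, as *Srf* then had an adjusted p of 0.0725 or 0.0539 and *Nr4a1* of 0.131 or 0.0951.

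Of 19 MAP kinases tested, 1 was higher and 1 lower, with a median of -0.05, where 11.5% and 11.6% of all genes were called. *Map3k5*, which encodes the stress kinase ASK1, went from 84.4 ± 3.08 to 59.2 ± 1.43 CPM (log2 fold change -0.51, adjusted p = 9.82e-04). *Map2k3*, a kinase of p38, went from 135 ± 2.67 to 185 ± 6.66 (0.45, adjusted p = 8.46e-04). Of 14 MAPK phosphatases and feedback inhibitors tested besides *Dusp1*, 4 were higher and 4 lower (28.6% each way, against 11.5% and 11.6% of all genes), with a median of 0.25. *Dusp5*, a nuclear phosphatase of ERK, had 54.4, 53.4 and 60.0 CPM in LOXP and 110.4, 125 and 111 in KO (1.05, adjusted p = 8.81e-05). *Dusp10* and *Dusp16*, phosphatases of JNK and p38, fell. *Dusp10* went from 58.0 ± 2.71 to 34.5 ± 2.68 CPM (-0.75, adjusted p = 5.06e-04) and *Dusp16* from 229 ± 15.6 to 139 ± 0.824 (-0.72, adjusted p = 1.86e-04).

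Of 30 other early response genes tested, 5 were higher (16.7%) and 6 lower (20.0%), with a median of 0.00, not far from the 11.5% and 11.6% of all genes. *Irf1*, an interferon regulatory factor, had 13.2, 23.9 and 15.4 CPM in LOXP and 8.16, 9.06 and 9.91 in KO (log2 fold change -0.95, adjusted p = 0.0146), and was highest in LOXP2, without which the log2 fold change was -0.66 (adjusted p = 0.0149). Its adjusted p was 0.0539 without KO1. *Ier5*, a regulator of heat shock factor HSF1, went from 130.4 ± 7.23 to 245 ± 23.7 CPM (0.91, adjusted p = 2.21e-04). *Id3*, an inhibitor of helix-loop-helix factors, went from 114 ± 24.4 to 64.3 ± 3.16 (-0.83, adjusted p = 0.00376), and without LOXP2, its highest library, the log2 fold change was -0.65. The count of higher genes was 2 without KO1, KO2 or KO3 and 3 without LOXP3. Of 12 other KLF factors, 2 were higher (16.7%) and 3 lower (25.0%), against 11.5% and 11.6% of all genes, with a median of -0.03. *Klf5* rose from 20.1 ± 1.78 to 39.2 ± 1.80 CPM (0.96, adjusted p = 2.55e-04), *Klf4* fell from 27.1 ± 0.790 to 16.5 ± 1.96 (-0.71, adjusted p = 0.00186) and *Klf15* from 20.2 ± 2.71 to 13.7 ± 2.41 (-0.56, adjusted p = 0.0287). The call of *Klf15* was lost without KO1, KO2 or LOXP3, with an adjusted p up to 0.0913. The KLF counts were 1 higher and 1 lower without KO2, and 1 was higher without KO3, LOXP1 or LOXP2.

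Many target genes of MYC serve ribosome production and nucleotide synthesis. Their list, as the others, was chosen with earlier results of these data known. Of 20 tested, 15 were higher (75.0%, against 11.5% of all genes tested) and 0 lower (against 11.6%), and the median difference on the log2 scale was 0.39, while *Myc* itself did not pass the test. The groups did not overlap for 16 of the 20, all higher in KO, where 20.4% of all genes tested did so. *Polr1b*, a subunit of RNA polymerase I, had 60.0, 70.1 and 63.2 CPM in LOXP and 113, 117 and 109 in KO (log2 fold change 0.81, adjusted p = 2.55e-04). *Rrp9*, a protein of ribosomal RNA processing, went from 47.0 ± 4.56 to 77.7 ± 4.33 CPM (0.73, adjusted p = 8.65e-04). *Cad*, the enzyme of the first steps of pyrimidine synthesis, went from 154 ± 12.3 to 228 ± 16.1 (0.57, adjusted p = 0.00154). The count of 15 was between 11 and 16 over all alternatives. Of 8 tested partners of MYC, 1 was higher and 1 lower (12.5% each way, near the share of all genes), with a median of 0.04. *Mxd4*, which competes with MYC for MAX, went from 56.5 ± 3.35 to 36.0 ± 6.33 CPM (-0.65, adjusted p = 0.00767). *Max* went from 59.9 ± 3.30 to 71.5 ± 0.522 (0.26, adjusted p = 0.0266), and its call was kept only without LOXP1 among the leave-one-out fits (adjusted p up to 0.0847).

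Known target genes of AP-1 include proteases, their receptors and keratins. Of 17 tested, 8 were higher (47.1%, against 11.5% of all genes) and 1 lower (5.88%, against 11.6%), with a median of 0.28. The count of higher genes was 5 without KO2 or LOXP1. *Plaur*, the urokinase receptor, had 115, 129 and 124 CPM in LOXP and 230.1, 276 and 254 in KO (log2 fold change 1.05, adjusted p = 8.81e-05). *Mmp9*, a matrix metalloproteinase, was scarce and fell from 2.32 ± 0.297 to 0.453 ± 0.112 CPM (-2.35, adjusted p = 0.00108). LOXP2, with little *Jun*, had the highest *Plaur* of its group, and KO1, with the most *Jun*, had the lowest of its group. *Plaur* is 1 of the 17 tested targets, and the others were not set beside *Jun*. Whether the AP-1 targets follow the level of *Jun* was not tested.

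The glucocorticoid response, which *Dusp1* also belongs to, acts through a nuclear receptor that dexamethasone in the medium binds. Of 15 tested genes, 1 was higher (6.67%, against 11.5% of all genes) and 6 lower (against 11.6%), with a median of -0.31. The higher one, *Sgk1*, chosen after its values were seen (log2 fold change 0.47, adjusted p = 0.0452), kept its call only without LOXP1 among the leave-one-out fits. *Pck1*, the enzyme that starts gluconeogenesis, had 10.0, 12.9 and 29.1 CPM in LOXP and 1.53, 1.24 and 2.51 in KO (log2 fold change -3.30, adjusted p = 0.00162). *Tat*, tyrosine aminotransferase, went from 26.5 ± 4.68 to 14.9 ± 0.426 CPM (-0.83, adjusted p = 0.00320). *Cdkn1a*, which encodes the cell cycle inhibitor p21, went from 278 ± 42.4 to 129 ± 68.6 (-1.11, adjusted p = 0.0335), with a call that was kept only without KO3 among the leave-one-out fits (adjusted p up to 0.107).

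**Figure D4:**
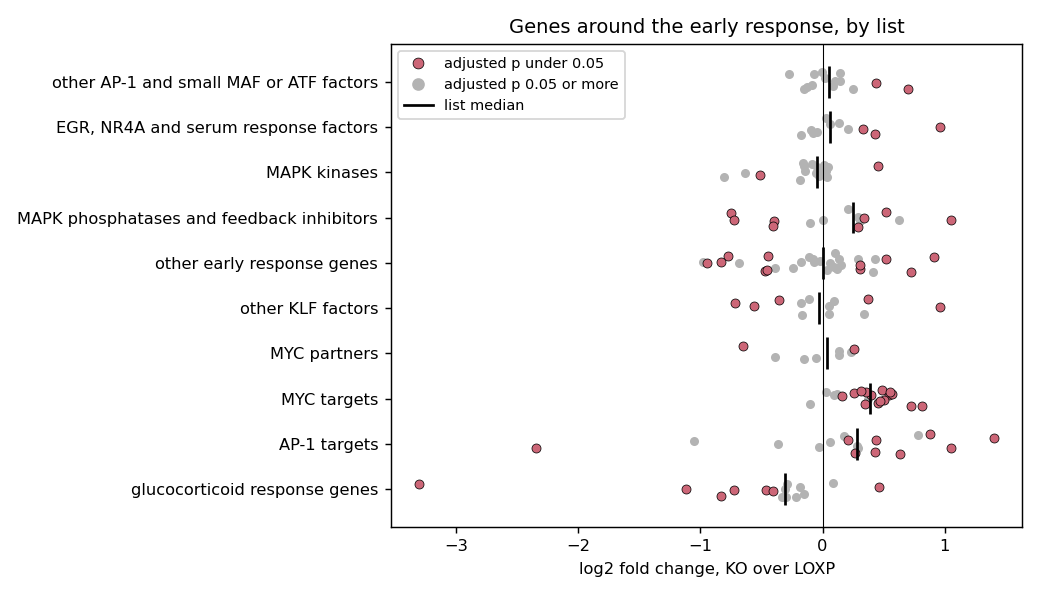
Log2 fold change of KO over LOXP (n = 3 libraries per group) for every tested gene of 10 lists around the early response, in red where the adjusted p from edgeR was under 0.05, with a bar at each list's median. The MYC targets have a median of 0.39 with 15 of 20 in red, all above 0, while the glucocorticoid response genes have a median of -0.31.

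Markers of hepatocytes and of other liver and blood cells were counted in the same way. Of 14 tested hepatocyte markers, 10 were lower (71.4%, against 11.6% of all genes tested) and 0 higher, and their summed level went from between 27470 and 29370 CPM in LOXP to between 22760 and 24150 in KO. The most abundant were *Alb* (log2 fold change -0.27, adjusted p = 0.00319), *Apoa1* (-0.09, adjusted p = 0.232) and *Serpina1c* (-0.39, adjusted p = 0.00325). Of 14 macrophage and Kupffer cell markers, 2 were lower (14.3%, near the 11.6% of all genes) and 0 higher, with sums from 157 to 182 CPM in LOXP and from 111 to 132 in KO. *Cd68* fell by 0.87 and *Mpeg1* by 0.69 (adjusted p = 4.21e-04 and 0.00401), while *Lyz2* had 0.18 (adjusted p = 0.353). Of 10 sinusoidal endothelial markers, led by *Cdh5*, *Lyve1* and *Eng*, 1 was lower (10.0%, near the 11.6% of all genes). Their sums ran from 217 to 245 CPM in LOXP and from 197 to 214 in KO. Of 9 stellate cell and fibroblast markers, led by *Dcn*, *Acta2* and *Rgs5*, 0 passed the test, with sums from 44.7 to 48.8 and from 48.9 to 51.1 CPM. Of 5 cholangiocyte markers, 3 were lower (60.0%, against 11.6% of all genes) and 1 higher (20.0%, against 11.5%). The 3 lower ones were *Cldn4*, *Sox9* and *Spp1*, and the sums ran from 292 to 351 CPM in LOXP and from 153 to 181 in KO. The 8 neutrophil markers, of which *Csf3r*, *S100a9* and *S100a8* had the highest FPKM, held at most 2.03 CPM in any library, in LOXP2, with *Ly6g*, *Mpo* and *Retnlg* at 0. All 9 lymphocyte markers, *Cd3e*, *Cd3d* and *Cd4* among them, were at 0 in every library. The part of other cells in the levels of the early genes was not tested.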

How the data were processed

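RNA of 6 hepatocyte samples was sequenced as paired-end reads. Per the labels, the authors used fastp, HISAT2, StringTie and edgeR with build GRCm39. The annotation, counting tool and strand setting are not given in the sources used here. The authors deposited read counts without normalization and FPKM values for 57180 genes, 12 columns in all. Columns were assigned to groups by the labels, and no library was left out. The 10 members and all lists were chosen with earlier results of these data known.

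Tests on the counts used edgeR 4.0.16 (R 4.3.3): filterByExpr by group with a minimum count of 10, TMM, the two-sided quasi-likelihood test, and Benjamini-Hochberg adjustment over the 14151 genes tested. CPM are TMM-normalized. The exact two-sided permutation test of a single gene, 3 libraries against 3, allows no p under 0.1, and was at 0.1 for the 6 members whose groups did not overlap and from 0.2 to 1 for the other 4. Intervals of fold changes use the spread between libraries. No pair of replicates was 1 library deposited again: chi-square divided by its degrees of freedom ran from 7.60 to 16.1. Genes named are the 10 members, in each pathway list the 3 with the largest absolute log2 fold change among those past the threshold, and in each marker list the 3 with the highest mean FPKM. One gene that this rule names is not reported here. Others were chosen after their values were seen. Alternatives tried included DESeq2 1.42.0, upper-quartile factors, 2 other count filters, the replicate number as a block, limma 3.58.1 (limma-trend) on log2(FPKM + 1) and each library left out, with summed overlapping genes added after seeing the data. Reference tables are of GRCm38.p6 and were joined by gene name or identifier, never by coordinate.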

Additional observations from a re-analysis of the deposited data

How the results depend on the processing

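Over 124 pairs of an early gene and an alternative, 122 kept the direction reported. The exceptions were *Ier3* without LOXP2 (0.26, adjusted p = 0.0331, within -0.51 to 0.26 over the libraries left out) and *Klf6* without LOXP1 (0.039, adjusted p = 0.628, within -0.092 to 0.039). DESeq2 gave no adjusted p for *Jun*. With each library left out in turn, between 2 and 4 early genes were called higher and between 0 and 2 lower, and 0 or 1 met the study's 3 criteria, the one being *Fosl1* without LOXP2. With all genes kept that had at least 1 count, 0 early genes were called lower, since the adjusted p of *Atf3* was 0.0542. Over all genes, leaving out a library gave between 922 and 1510 higher and between 1052 and 1515 lower calls, against 1633 and 1641 with all 6, the fewest without KO2 (922 and 1052) and then without KO1 (1058 and 1088), where fewer samples were tested. Of 323 pairs for the 27 list genes, 0 reversed and 34 lost the call. Deviations of same-numbered libraries correlated at 0.12, 0.083 and 0.013, and those of differently numbered libraries between -0.131 and 0.046. LOXP3 correlated best with KO2 (0.046). The labels name no pairs, and the numbers were not taken as pairs. Whether same-numbered libraries shared a batch is not known. The replicate block gave 1630 higher and 1605 lower calls over all genes, with 3 early genes higher and 1 lower as without it. *Nr4a1* lost its call with the replicate block (adjusted p = 0.0654). Read depth limits *Fos*, with at most 125 counts in a library, and *Jun* in LOXP2 and KO3 (66 and 98 counts). It also limits *Mmp9*, which did not pass a filter of 10 counts in every library.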

Other observations

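*Jun* was 1 of 11 genes (0.0991% of the 11102 that averaged over 1 FPKM in either group) whose counts ranged over at least 2 on the log2 scale within both groups. The others, named after their values were seen, were *H2ac18*, *Gm20634*, *Gm28040*, *Gm44502*, *Gm36961*, *Gm28037*, *Zbtb42*, *Idi1*, *Ndor1* and *Gm49933*. Of the 11, 9 have spans that overlap another gene (81.8%, against 53.1% of all genes scanned) and 5 have a single exon in GENCODE M21 (12.3% of all genes scanned). *Jun* had the most counts in any library among them, 2029 in KO1. *Idi1*, an enzyme of isoprenoid synthesis, had 126, 557 and 159 counts in LOXP1, LOXP2 and LOXP3 and 373, 1738 and 326 in KO1, KO2 and KO3. *Zbtb42* had 321, 263 and 57 counts in LOXP and 56, 53 and 368 in KO. *Jun* was high in LOXP1, LOXP3 and KO1, while *Idi1* was highest in LOXP2 and KO2. *Zbtb42* was high in LOXP1, as *Jun* was, but also in LOXP2 and KO3, where *Jun* was low. *Gm28037* had 39, 1 and 39 counts in LOXP and 47, 1 and 164 in KO, low in LOXP2 and KO2 as *Jun* was, but highest in KO3, where *Jun* was low.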
